A study of Gallus gallus with 12 samples.

Results

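Livers of hens in the broodiness period (BP, day 400) were compared here with livers of hens in the juvenile period (JP, day 60). The members of the comparison are the 3 BP and the 3 JP livers of a series of 12, whose other 6 livers came from sexual maturity (SM, day 133) and peak laying (PL, day 220). All hens were healthy Luhua chickens, a Chinese indigenous breed, with no treatment, and each library held the RNA of the liver of 1 hen. RNA was freed of ribosomal RNA and sequenced from strand-specific libraries, and each transcript has a value in FPKM, a count of fragments relative to the length of the transcript and to the size of the library. A mRNA or lncRNA (a long RNA without a coding region) was tested where its FPKM was above 0.1 in at least 3 of the 6 BP and JP livers, which left 15468 of 18260 mRNAs and 4243 of 16930 lncRNAs. Age and reproductive stage changed together between the 2 groups, so their parts cannot be told apart.

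The liver of an egg-laying bird makes the precursors of egg yolk, the vitellogenins and the apolipoproteins of very low density lipoprotein, and releases them to the blood that reaches the ovary. Estrogen switches on their genes as the hen matures, and a juvenile liver makes almost none. In broodiness the hen stops laying and sits on its eggs. The mRNAs are listed under Ensembl transcript identifiers that the files do not pair with gene names. The gene reference used here holds no Ensembl identifiers of chicken, so 0 of the 18260 could be given a symbol from it. No pairing was taken from the supplementary tables of the study. The markers of hepatocytes, blood cells and connective tissue were therefore not looked up, and the tissue label was not checked. For the same reason only 4 mRNAs are named below, and the rest are described by their values.

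The libraries of the 2 stages also differed in their totals. The sum of FPKM over mRNAs was 741757 to 772041 in BP livers, against 516697 to 539529 in JP livers, and the sum over lncRNAs was 7174 to 8583 in BP livers, against 3678 to 3914 in JP livers. mRNAs listed at 0 numbered 1111 to 1401 in BP livers, against 1970 to 2090 in JP livers. The worth of 1 fragment was estimated from the ratios that recurred most among low lncRNA values of 2 livers. By this estimate it was 1.48 to 1.60 times as large in BP livers as in JP liver 1. That would mean that BP values were divided by a smaller total, which was not tested. Of 20 sets of 3 livers, 16 gave ratios that agreed within 0.002 on the log2 scale. The study's own list of libraries gives fewer clean reads for every BP liver than for every JP liver. These read numbers were not set against the estimate. The list also gives a lower share of mapped reads for every SM and BP liver than for every JP and PL liver. The livers thus divide into SM and BP on one side and JP and PL on the other. This division was deduced from these values, and no label or method names a sequencing batch that follows it. BP and JP lie on opposite sides of it, so library and stage cannot be told apart in this comparison. Each direction was therefore also read on scaled values, for which a liver was divided by the median, over mRNAs, of its ratios to the mean liver (the geometric mean of all 6). The factors made BP livers lower relative to JP livers by 0.25 on the log2 scale.

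A few very abundant mRNAs took up much of the BP libraries. The 5 mRNAs with the largest rise in mean FPKM held 29.9%, 35.2% and 35.0% of the summed FPKM in BP livers 1 to 3, against 0.740%, 0.591% and 0.936% in JP livers 1 to 3. Without these 5 alone, the sums were 487821 to 519787 in BP livers and 513645 to 535535 in JP livers. Without these 5 and the 5 with the largest fall in mean FPKM, they were 476848 to 502593 and 453852 to 478239. The ranges overlapped in both cases. The mRNAs left out were chosen by this same difference between BP and JP livers. The highest of the 5 risen mRNAs had 102216, 118758 and 126861 FPKM in BP livers, against 781, 695 and 643 FPKM in JP livers. The next had 70024, 84803 and 79735 FPKM in BP livers, against 635, 590 and 578 FPKM in JP livers. In both, the lowest BP liver was far above the highest JP liver. The SM livers had 66802 to 91617 FPKM of the first and 41332 to 60796 FPKM of the next. The PL livers had 1202 to 1655 and 723 to 1468 FPKM, so both mRNAs followed the division into SM and BP against JP and PL. Of the 5 risen mRNAs, 3 had their highest mean at BP, 1 at SM and 1 at PL. The 5 mRNAs with the largest fall in mean FPKM held 1.32% to 2.32% of the sum in BP livers, against 10.1% to 14.6% in JP livers. The 10 most abundant mRNAs of a liver took 49.9% to 54.0% of its sum in BP livers, against 35.5% to 38.0% in JP livers. They took 44.7% to 49.6% in SM livers and 33.4% to 43.4% in PL livers. These values come from whole tissue, where fewer cells of a type and less RNA per cell cannot be told apart.

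ENSGALT00000042470 had the largest rise on the log2(FPKM + 1) scale, and it was nearly silent in juvenile livers. It had 31576, 30891 and 36977 FPKM in BP livers, against 4.65, 1.62 and 2.0 FPKM in JP livers. The BP livers lay close together and the groups were far apart, with a log2 fold change of 13.19 ± 0.29 (SE, n = 3 livers each, limma's adjusted p = 2.44e-07). In the remaining stages it had 40539, 35692 and 39677 FPKM in SM livers and 3.68, 8.95 and 12.2 FPKM in PL livers. The SM livers thus stood with the BP livers and the PL livers with the JP livers, along the division of FPKM sums. This transcript is 1 of the 5 with the largest rise in mean FPKM. It is itself part of those sums, so its course is not separate from their division.

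ENSGALT00000060226 had the next largest rise and another course. It had 601, 4567 and 1076 FPKM in BP livers, against 0.395, 1.05 and 1.03 FPKM in JP livers, a log2 fold change of 9.64 ± 0.64 (SE, limma's adjusted p = 9.19e-05). Its spread among BP livers was wide, and BP liver 2 was the highest. It had 3.97, 4.70 and 3.48 FPKM in SM livers and 27300, 25146 and 7674 FPKM in PL livers. The BP livers were therefore above the SM livers, whose FPKM sums were like theirs, and below every PL liver. Of the 10 mRNAs with the largest rise on this scale, 4 had their highest mean at PL, 5 at BP and 1 at SM. With 1 more from the 5 largest rises in FPKM, 5 risen mRNAs had their highest mean at PL, and BP liver 2 was the highest BP liver in all 5, at 2.15 to 23.3 times the lowest. Their means were 225 to 6758 FPKM in BP livers, against 0.0903 to 85.7 FPKM in JP livers, with 0.752 to 204 FPKM in SM livers and 383 to 37190 FPKM in PL livers. These mRNAs can vary together, so they are not separate observations of BP liver 2.

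The largest falls were almost complete. ENSGALT00000068633 had 0.114, 0.117 and 0.103 FPKM in BP livers, against 2508, 2262 and 2122 FPKM in JP livers, a log2 fold change of -11.01 ± 0.13 (SE, limma's adjusted p = 2.42e-09). ENSGALT00000063504 had 0.111, 0.111 and 0.102 FPKM in BP livers, against 2196, 1965 and 1854 FPKM in JP livers, a log2 fold change of -10.82 ± 0.13 (SE, limma's adjusted p = 2.42e-09). The added 1 FPKM shrinks these changes, and with 0.1 added they were -13.40 and -13.23. All BP livers of both transcripts lay just above the 0.1 FPKM of the filter and all JP livers among the abundant mRNAs. Both were also low in SM livers, at 0.0961 to 0.115 FPKM for ENSGALT00000068633 and 0.0952 to 0.116 FPKM for ENSGALT00000063504. In PL livers ENSGALT00000063504 had 3089, 3341 and 2035 FPKM, and ENSGALT00000068633 had 3360, 3725 and 0.124 FPKM. PL liver 3 thus stood with the JP and PL livers in one of the transcripts and with the SM and BP livers in the other.

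**Figure D1:**
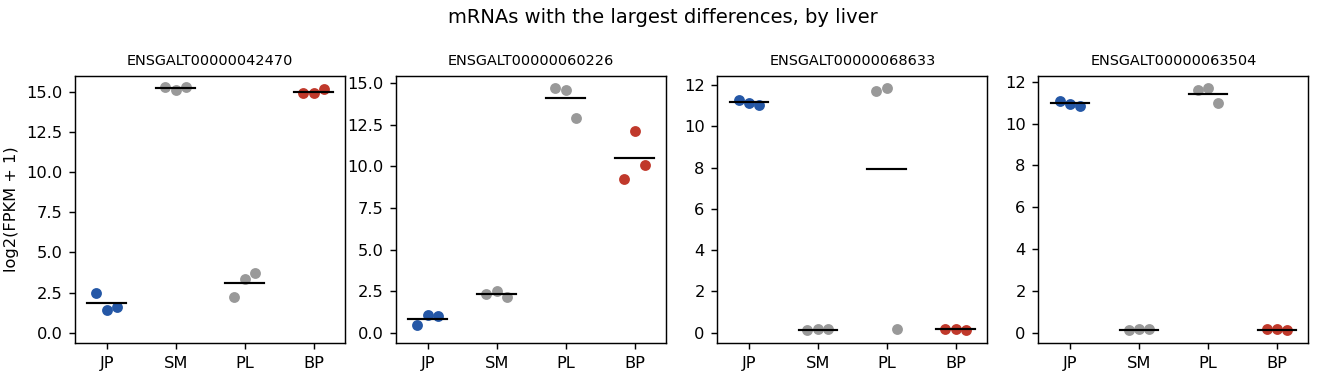
The plot shows log2(FPKM + 1) of 4 mRNAs in each liver (points, 3 a stage) with the stage mean (line), in the order JP, SM, PL and BP. ENSGALT00000042470 is high at SM and BP, ENSGALT00000060226 is highest at PL, and ENSGALT00000068633 and ENSGALT00000063504 are near 0 in every SM and BP liver.

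The remaining falls among the 10 largest were smaller, and the last of the 10 had a log2 fold change of -3.27. Of these 10, 8 had their highest mean at JP and 2 at PL. The 2 most abundant fallen mRNAs moved nearly alike. The first had 5468, 3291 and 2847 FPKM in BP livers, against 24884, 19891 and 18214 FPKM in JP livers. The other had 5467, 3250 and 2972 FPKM in BP livers, against 23582, 20103 and 18694 FPKM in JP livers. BP liver 1 was the highest BP liver in both, and JP liver 1 the highest JP liver. Among the 10 largest rises, 8 had a partner in the same list with a correlation above 0.99 over the 12 livers, a description in which the points share libraries. Transcripts of 1 gene or of near-identical genes can share fragments that StringTie divides between them, and the files do not tell which of these are such pairs.

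Of the tested mRNAs 3995 changed (25.8%), of which 2860 rose (18.5% of those tested) and 1135 fell (7.34%) in BP livers, with limma's Benjamini-Hochberg adjusted p below 0.05 and a change of at least 1.5-fold on the log2(FPKM + 1) scale. On scaled values 3892 changed (25.2%), of which 1936 rose (12.5%) and 1956 fell (12.6%). The share of rises among the changed mRNAs was thus 71.6% as deposited and 49.7% after scaling. The median log2 fold change of all tested mRNAs was 0.16 as deposited and 0.03 after scaling, a shift of 0.13. Both scales gave the same direction for 1936 rises (12.5%) and 1134 falls (7.33%). The counts that follow are of these where both scales are named. Every scaled rise was also called as deposited, and 1134 of the 1135 deposited falls were also called after scaling. This set therefore joins the scaled rises to the deposited falls, and its excess of rises is not read as a result. Of the mRNAs called on both scales, 1219 risen and 425 fallen changed at least 2-fold as deposited. At 4-fold as deposited these were 236 and 54, and at 16-fold 46 and 6. This set kept all 1936 scaled rises but 1134 of the 1956 scaled falls. The cuts used deposited values, where BP livers lie higher relative to JP livers than after scaling. Both favour rises, so no balance of directions by fold is read from these counts. No cut at these folds was made on scaled values. The 3 BP and the 3 JP livers did not overlap for 7605 mRNAs (49.2% of those tested), of which 5277 were higher (34.1%) and 2328 lower (15.1%) in BP livers, and on scaled values for 7885 (51%).

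**Figure D2:**
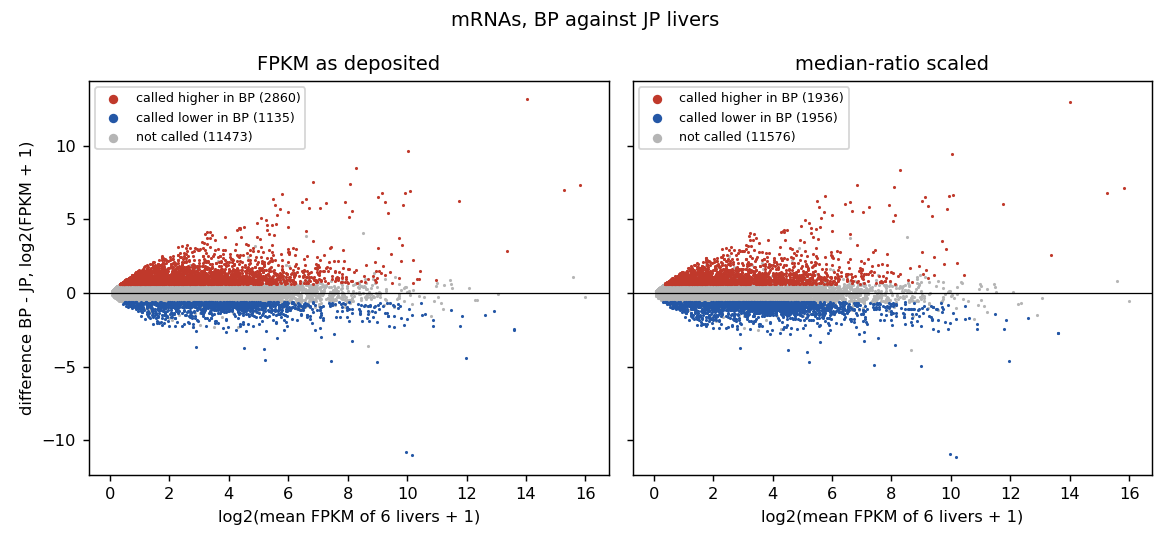
Each point is a tested mRNA, with the mean level of the 6 livers on the x axis, log2(mean FPKM + 1), and the difference BP minus JP in log2(FPKM + 1) on the y axis, for values as deposited (left) and median-ratio scaled (right). As deposited 2860 mRNAs are called higher and 1135 lower in BP, and after scaling 1936 and 1956.

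The balance of rises and falls differed with the level of the mRNA. Among 4329 mRNAs with a mean below 1 FPKM, 390 rose and 61 fell in BP livers as deposited, and 273 rose and 81 fell after scaling. Between 1 and 10 FPKM, 1580 rose and 424 fell of 6726, and after scaling 1061 rose and 785 fell. Rises were thus the more frequent in both low classes on both scales. Between 10 and 100 FPKM, 758 rose and 536 fell of 3878 as deposited, but 508 rose and 942 fell after scaling. From 100 to 1000 FPKM, 119 rose and 96 fell of 479 as deposited, and 85 rose and 131 fell after scaling. In these middle classes the more frequent direction turned with the scaling. Over 1000 FPKM, 13 rose and 18 fell of 56 as deposited, and 9 rose and 17 fell after scaling. The share of mRNAs that changed in either direction was 10.4% in the lowest class and 55.4% in the highest as deposited, and the added 1 FPKM shrinks the changes of low mRNAs.

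**Figure D3:**
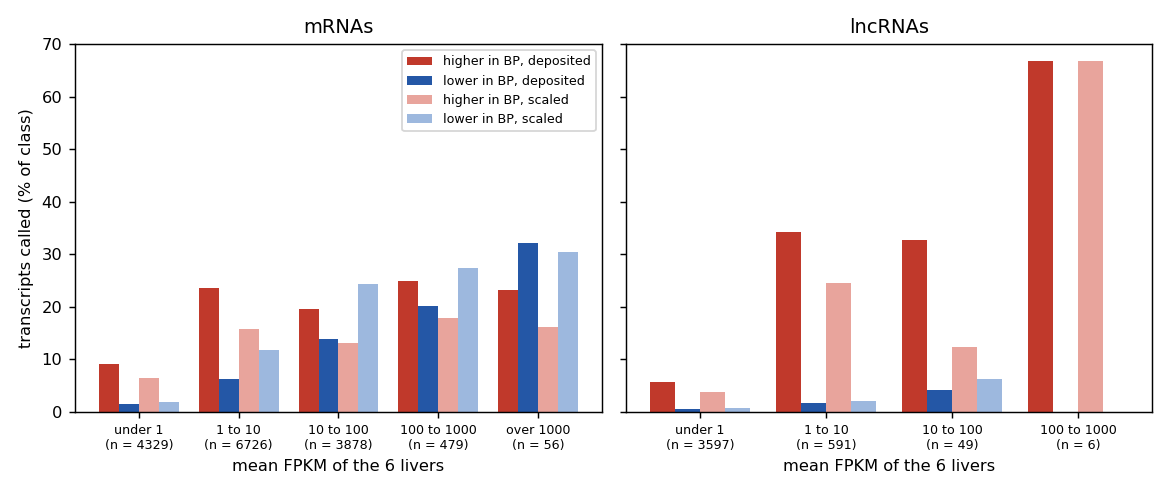
Bars give the percentage of tested transcripts called higher (red) or lower (blue) in BP livers by class of mean FPKM, in dark colours for deposited and light colours for scaled values, with mRNAs left and lncRNAs right. Between 10 and 100 FPKM the mRNA bars change order with the scaling, whereas among lncRNAs the rises are more frequent in every class on both scales.

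Some transcripts were present in all livers of 1 stage and listed at 0 in all livers of the other. Of the 15468 tested mRNAs, 118 were above 0.1 FPKM in every BP liver and at 0 in every JP liver, and 44 of them were called as deposited. The reverse held for 11 mRNAs, of which 4 were called. Over all tested mRNAs, 18.5% were called higher and 7.34% lower in BP livers. Such transcripts passed the filter only through the stage in which they were present, and the stage at 0 added no spread to the test. Their calls are therefore not read as a result. Their levels were low, with medians of 0.459 FPKM for the BP mRNAs and 0.470 FPKM for the JP mRNAs. Of the 118, 90 were above 0 in all SM livers and 67 were at 0 in all PL livers. Of the 4243 tested lncRNAs, 185 were above 0.1 FPKM in every BP liver and at 0 in every JP liver, and 50 of them were called. The reverse held for 27 lncRNAs, of which 6 were called. Over all tested lncRNAs, 10% were called higher and 0.754% lower in BP livers, and the same limit holds for these calls. Of the 185, 93 were above 0 in all SM livers and 104 at 0 in all PL livers. The matching SM and PL counts over all tested transcripts were not made, so no excess is read from these. A value of 0 in FPKM does not tell how many fragments could have been missed, and no limit of detection is given.

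The SM and PL livers, none of which entered the comparison, lie on the same sides of the division of FPKM sums as the BP and JP livers. Of the 2860 mRNAs that rose in BP livers, 64.6% were higher in all SM livers than in all PL livers and 4.93% lower, where the shares over all tested mRNAs were 42.7% and 6.45%. Of the 1135 that fell, 20.5% were higher and 16.4% lower in all SM livers. After scaling, 50.2% of the risen mRNAs were higher in SM and 13.1% lower, where all tested mRNAs gave 23.8% and 22.4%. Of the mRNAs that fell on the scaled values, 8.74% were higher and 45.3% lower in SM livers. On the scaled values, then, the called mRNAs differed between SM and PL more often in the direction in which they differed between BP and JP, and this difference between the sets was not tested. Across the tested mRNAs, the BP minus JP difference and the SM minus PL difference had a Pearson's r of 0.28 (Spearman's rho 0.30), and 0.28 (0.32) after scaling. Both differences cross this division, and mRNAs are not independent replicates.

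**Figure D4:**
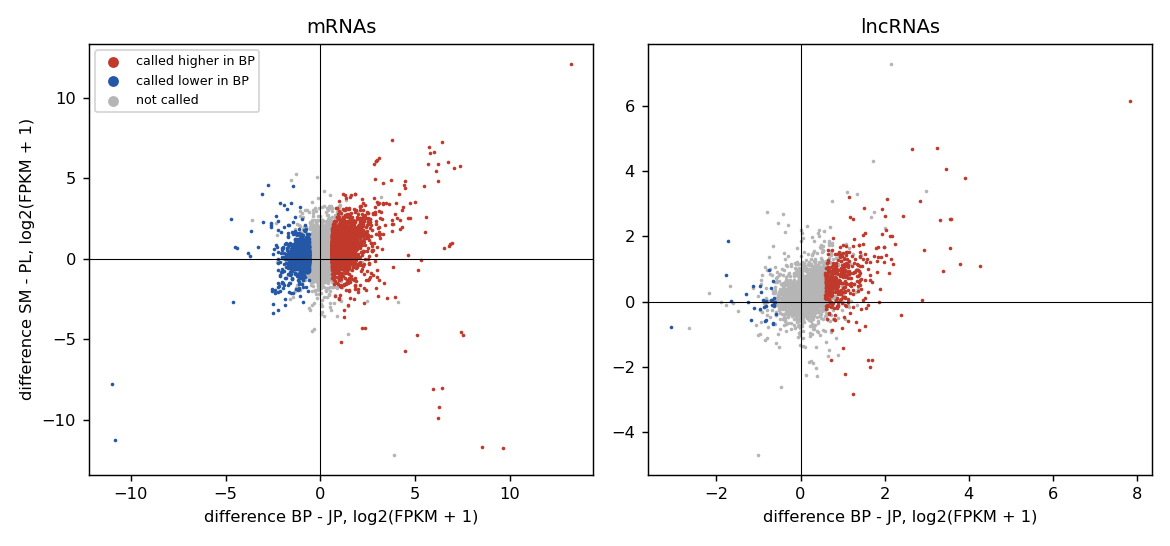
Each point is a tested mRNA (left) or lncRNA (right), with the difference BP minus JP on the x axis and the difference SM minus PL on the y axis, both in log2(FPKM + 1) of deposited values. Most transcripts called higher in BP (red) lie above 0 on the y axis, where the medians of all tested mRNAs and lncRNAs also lie (0.33 and 0.18). Among the mRNAs a smaller group of large rises lies far below 0.

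The stages of the highest and lowest mean were also listed for the changed mRNAs. On values scaled over the 12 livers, the 1936 mRNAs that rose on both scales had their highest mean at BP in 1136 cases (58.7%), at SM in 467 (24.1%) and at PL in 333 (17.2%). Their lowest mean was at JP in 1468 (75.8%) and at PL in 434 (22.4%). Of the 1134 that fell on both scales, 995 (87.7%) had their highest mean at JP, 122 at PL and 17 at SM, and their lowest mean was at BP in 637, at SM in 374 and at PL in 123. The choice of members leaves JP out as the highest stage of the rises and BP out as that of the falls. It likewise leaves BP out as the lowest stage of the rises and JP out as that of the falls. The same choice favours BP as the highest and JP as the lowest stage of the rises, and the reverse for the falls. No excess over all tested mRNAs is therefore read from these shares. Of all tested mRNAs, 23.3% were highest at BP, 20.8% at SM, 26.7% at PL and 29.2% at JP. The lowest mean was at BP in 18.7%, at SM in 21.9%, at PL in 27.7% and at JP in 31.7% of them. Among the 236 rises of at least 4-fold as deposited, 172 were highest at BP, 35 at PL and 29 at SM. BP liver 2 was the highest BP liver in 24 of the 35 with PL as the highest stage (68.6%), where it was the highest in 33.7% of all tested mRNAs. This did not hold for smaller rises, since among all 333 risen mRNAs with PL as the highest stage BP liver 2 was the highest in 109 (32.7%) and BP liver 1 in 168. Among the 172 with BP as the highest stage, BP liver 2 was the highest in 64 (37.2%). mRNAs can vary together within a liver, so these counts are not separate observations of BP liver 2.

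Most called lncRNAs were higher in BP livers. The sum of FPKM over lncRNAs was 7174 to 8583 in BP livers and 7070 to 7568 in SM livers. It was 3678 to 3914 in JP livers and 3106 to 3985 in PL livers, along the division of livers given above. The scaling factors came from mRNAs. The filter let in 185 lncRNAs at 0 in every JP liver, against 27 at 0 in every BP liver. Library and stage cannot be told apart in this direction. Of 4243 tested, 458 changed (10.8%), of which 426 rose (10% of those tested) and 32 fell (0.754%) as deposited, and on scaled values 325 changed (7.66%), of which 286 rose (6.74%) and 39 fell (0.919%), with the same threshold on limma's adjusted p and the fold change. All 286 of the scaled rises (6.74%) and 28 of the falls (0.66%) were called in the same direction on both scales. This set kept every scaled rise but 28 of the 39 scaled falls, so it favours rises, as for mRNAs. The median log2 fold change of all tested lncRNAs was 0.17 as deposited and 0.12 after scaling. Of the lncRNAs called on both scales, 166 risen and 8 fallen changed at least 2-fold as deposited, and 24 and 1 at least 4-fold. The groups did not overlap for 1848 lncRNAs (43.6% of those tested), 1622 of them higher (38.2%) and 226 lower (5.33%) in BP livers, and on scaled values for 1687 (39.8%). Many of these calls rested on every JP liver. Without JP liver 1, 2 or 3 the total of 458 called lncRNAs became 121, 134 and 131, and without BP liver 1, 2 or 3 it became 389, 443 and 366. In these fits 90.1% to 95.7% of the called lncRNAs were higher in BP livers.

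Most lncRNAs were low. Of the 3597 with a mean below 1 FPKM, 204 rose and 20 fell in BP livers, and of the 591 between 1 and 10 FPKM, 202 rose and 10 fell. Of 49 between 10 and 100 FPKM, 16 rose and 2 fell, and of the 6 above 100 FPKM, 4 rose. After scaling, 131 rose and 24 fell in the lowest class, 145 and 12 in the next, 6 and 3 between 10 and 100 FPKM, and 4 and 0 above it. On values scaled over 12 livers, the 286 lncRNAs that rose on both scales had their highest mean at BP in 196 cases (68.5%). It was at SM in 67 (23.4%) and at PL in 23 (8.04%). All tested lncRNAs gave 37.0% at BP, 28.8% at SM, 16.2% at PL and 18.0% at JP, a stage that the choice of rises leaves out. That choice also favours BP as the highest stage, so no excess at BP is read from this. Of the 426 that rose as deposited, 66.2% were higher in all SM livers than in all PL livers and 4.69% lower, where all tested lncRNAs gave 39% and 4.31%. After scaling, 53.1% of the 286 were higher in SM and 6.99% lower, where all tested lncRNAs gave 28.2% and 7.97%. Across lncRNAs the BP minus JP and the SM minus PL differences had a Pearson's r of 0.46 (Spearman's rho 0.37), and 0.39 (0.30) after scaling.

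TCONS_00074302 was the lncRNA with the largest rise. It had 188, 236 and 260 FPKM in BP livers and was listed at 0 in all 3 JP livers (adjusted p = 8.79e-06 from limma). No fold is given against a group at 0. It had 115, 53.6 and 55.8 FPKM in SM livers and was listed at 0 in all PL livers. TCONS_00216801 had the same pattern at a lower level, with 18.8, 11.8 and 12.4 FPKM in BP livers and 0 in every JP liver (adjusted p = 0.000216 from limma). It had 13.0, 8.06 and 19.5 FPKM in SM livers and 0 in every PL liver. Both lncRNAs were therefore above 0 in every SM and BP liver and at 0 in every JP and PL liver. They passed the filter through their BP livers alone. JP livers all at 0 added no spread to the test, so the adjusted p is limited in what it shows.

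Falls among lncRNAs were few. TCONS_00223123, the largest, had 4.35, 1.05 and 1.95 FPKM in BP livers, against 108, 11 and 14.3 FPKM in JP livers, with JP liver 1 far above the others. Its log2 fold change was -3.09 ± 0.83 (SE, limma's adjusted p = 0.0398). Without JP liver 1 it was -2.09, and the adjusted p was past 0.05 when any 1 of the 6 livers was left out. It had 1.32 to 1.74 FPKM in SM livers and 2.39 to 5.10 FPKM in PL livers, so that the JP livers stood above those of every later stage.

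For 5 lncRNAs the study also ran quantitative PCR, after choosing them among lncRNAs that differed in these livers, so they are no independent evidence of a direction. The primer pairs of the 3 that passed the test between BP and JP livers are given as the study lists them. Their positions in the transcripts were not located. They are written 5′ to 3′ in lower case, with no base marked.
TCONS_00155619 forward: catcaactccagccttcctctgc
TCONS_00155619 reverse: cagcctgcggatacttccaagtc
TCONS_00179354 forward: ctgatggaagtcaggcagctctc
TCONS_00179354 reverse: acaaggcaggtatcatgctggaag
TCONS_00037924 forward: ttaacaagaagggaaatgtggactg
TCONS_00037924 reverse: caattccttttgtttcctcttctga

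TCONS_00155619 rose, with 1.66, 3.33 and 2.45 FPKM in BP livers, against 0.196, 0.0300 and 0.0377 FPKM in JP livers. The groups were apart, with a log2 fold change of 1.65 ± 0.20 (SE, limma's adjusted p = 0.00517). TCONS_00179354 rose as well, with 1.49, 1.56 and 1.21 FPKM in BP livers, against 0.0223, 0 and 0.0229 FPKM in JP livers, a log2 fold change of 1.25 ± 0.12 (SE, limma's adjusted p = 0.00232). These fold changes are differences in log2(FPKM + 1), which the added 1 FPKM shrinks at such low levels. With 0.1 added they were 3.84 for TCONS_00155619 and 3.72 for TCONS_00179354. Both lncRNAs were low in SM livers, at 0.0339 to 0.598 FPKM for TCONS_00155619 and 0.0147 to 0.181 FPKM for TCONS_00179354. Both were highest in PL livers, at 2.72 to 6.03 FPKM for TCONS_00155619 and 2.44 to 11.1 FPKM for TCONS_00179354. Every BP liver was thus above every SM liver and every JP liver in both lncRNAs. TCONS_00179354 passed the filter through its BP livers alone.

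TCONS_00037924 fell, with 10.7, 9.19 and 11.9 FPKM in BP livers, against 29.4, 76.5 and 25.3 FPKM in JP livers. Its log2 fold change was -1.78 ± 0.42 (SE, limma's adjusted p = 0.0288), and JP liver 2 was far above the other JP livers. Without JP liver 2 the change was -1.29, and the adjusted p was past 0.05 when any 1 of the 6 livers was left out. It had 6.45 to 7.21 FPKM in SM livers and 1.05 to 5.88 FPKM in PL livers, so that it was highest at JP. TCONS_00083873 had 0.312, 1.56 and 0.692 FPKM in BP livers, against 0.0964, 0.307 and 0.0409 FPKM in JP livers. All BP livers were above all JP livers, though the nearest pair nearly met, and the log2 difference of 0.64 (standard error 0.24) did not pass the test (adjusted p = 0.0997 from limma). TCONS_00220501 had 52.4, 0 and 0 FPKM in BP livers, against 17.9, 22.6 and 0 FPKM in JP livers. It was present in 1 BP and 2 JP livers, the groups overlapped, and the difference of -1.02 had a standard error of 1.79 (adjusted p = 0.714 from limma). It was listed at 0 in all SM livers and had 20.5, 26.1 and 29.8 FPKM in PL livers.

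**Figure D5:**
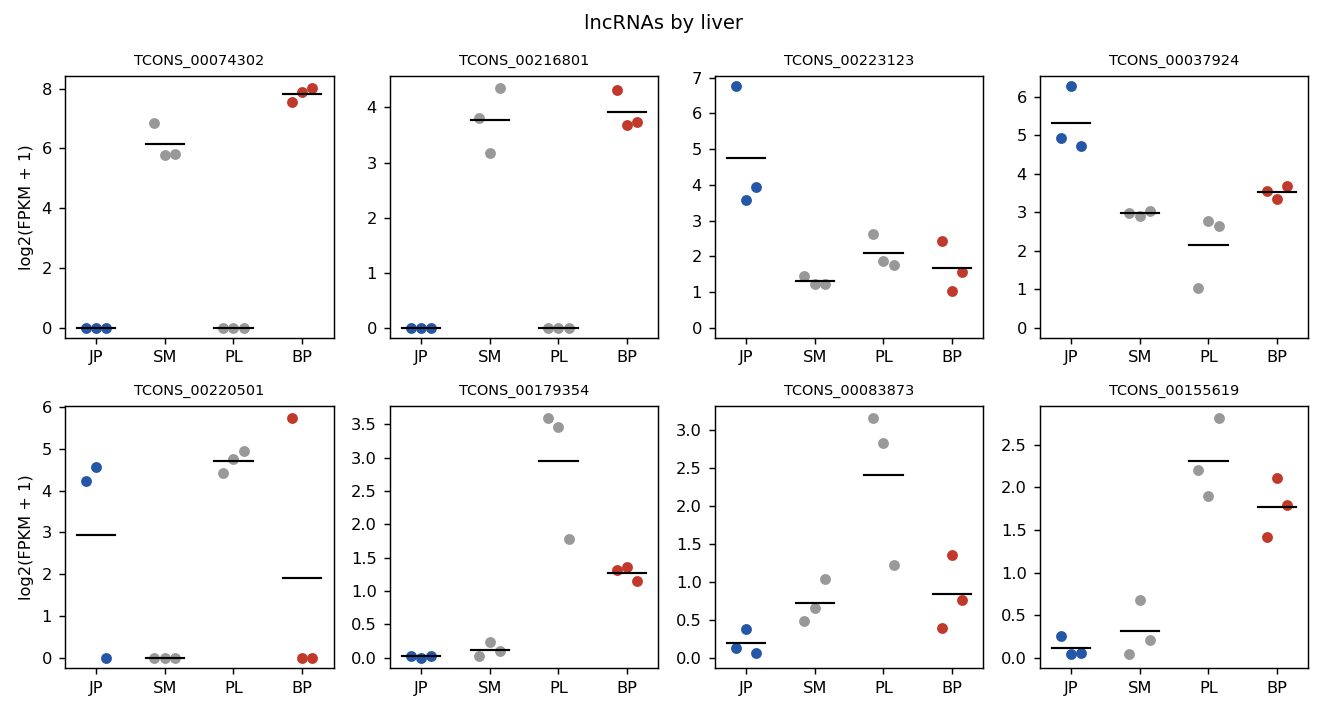
The plot shows log2(FPKM + 1) of 8 lncRNAs in each liver (points, 3 a stage) with the stage mean (line), in the order JP, SM, PL and BP, each panel on its own scale. TCONS_00074302 and TCONS_00216801 are at 0 in all JP and PL livers, TCONS_00223123 and TCONS_00037924 are highest at JP, and the other 4 have their highest stage mean at PL.

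The study sorted lncRNAs by their course over the 4 stages and by co-expression, and these lists were made on the same livers, so their direction between BP and JP is no independent evidence. Profile 28 held the highest share of rises, with 102 of 127 tested lncRNAs higher in BP livers (80.3%, median log2 fold change 1.27), where 10% of all tested lncRNAs rose (median 0.17). After scaling, 92 of the 127 rose, where 6.74% of all tested lncRNAs did. In profile 41, 24 of 45 rose (median 0.72) and 16 after scaling, and in profile 42, 175 of 501 (median 0.57) and 113 after scaling. In profile 39, 7 of 37 rose on either scale (median 0.53). The shares of rises in profile 48, with 14 of 98 (14.3%, median 0.39) and 5 after scaling, and in profile 29, with 1 of 20 on either scale (5%, median 0.09), lay near that of all tested lncRNAs. Only 20 of the 81 lncRNAs of profile 29 passed the filter. Profile 46 had 9 falls among 42 (median -0.54) and 11 after scaling, where 0.754% and 0.919% of all tested lncRNAs fell, and in profile 38, 0 of 53 changed as deposited (median 0.01) and 2 fell after scaling. Of the co-expression modules, the first had 50 rises among 151 tested lncRNAs (median 0.48) and 45 after scaling, the second 3 among 24 on either scale (12.5%, median 0.26) and the third 0 among 14 (median 0.08).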

How the data were processed

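The authors mapped the reads to the chicken genome (Gallus gallus-5.0) with HISAT2 2.1.0, assembled and quantified transcripts with StringTie 1.3.3, and deposited FPKM values of mRNAs and lncRNAs for each of 12 livers. All 24 value columns were matched to livers by name (0 left out). From these values log2(FPKM + 1) was tested in R 4.3.3 with limma 3.58.1, apart for mRNAs and lncRNAs, over the 3 BP and 3 JP livers (4 residual degrees of freedom, variance trend on the mean, Benjamini-Hochberg adjustment over all transcripts tested). No count model was used, since the values are FPKM, whereas the study tested read counts. The FPKM values do not give the depth of a library, and no counting interval is given. Figures were drawn in Python 3.11.15 with matplotlib 3.10.9. The members, lists and tests were chosen with earlier results of these data known.

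Transcripts to be named were those called in the same direction on both scales, with groups that did not overlap: the 10 largest rises and falls of mRNAs in log2(FPKM + 1), the 5 largest in mean FPKM, the 6 largest of lncRNAs, and the lncRNAs measured by quantitative PCR. Of the mRNAs 4 are printed, and of the lncRNAs the 2 largest rises and 2 largest falls. Alternatives were an added 0.1, other filters, scaling, no variance trend, all 12 livers, the replicate number as a block, and each liver left out. The planned gene lists and marker lists by symbol and the neighbours of lncRNAs were not analysed here, because no identifiers or coordinates in the tables used allowed it.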

Additional observations from a re-analysis of the deposited data

How the results depend on the processing

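Of the 4 named mRNAs and 8 lncRNAs, no direction reversed in any fit. All 52 alternative fits of the mRNAs kept their side of the threshold, as did 86 of 103 of the lncRNAs. Of the other 17, 8 were of TCONS_00223123 and 8 of TCONS_00037924, which lost significance, and TCONS_00083873 passed without BP replicate 1 (adjusted p = 0.0484 from limma). With scaling, mRNAs lower in BP numbered 1956 in place of 1135, and for mRNAs higher in BP the numbers with SM above PL and with PL above SM were 972 and 254, in place of 1848 and 141. The mRNA total was 3051 to 3820 when 1 liver was left out.

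The lncRNA counts moved more. With 0.1 added, 1042 lncRNAs were called (943 higher and 99 lower in BP), and with no filter 113 (111 and 2), where more transcripts were tested. Under the stricter filter of 1 FPKM, 18 were lower. The replicate numbers do not pair the livers: same-numbered livers had correlations of deviations of -0.04 to 0.00 for mRNAs and -0.07 to -0.01 for lncRNAs. No liver correlated best with its own number. With the replicate number as a block, 3762 mRNAs and 132 lncRNAs (126 and 6) were called. Without 1 liver, the lncRNA total was 121 to 443, with 110 to 424 higher and 11 to 21 lower. On scaled values, alternatives chosen after seeing the data gave 812 lncRNAs (696 and 116) with 0.1 added and 82 (74 and 8) with no filter. The replicate block on scaled values gave 68 lncRNAs (64 and 4) and 3718 mRNAs. Without 1 liver, the scaled total was 103 to 281, with 83 to 257 higher and 12 to 28 lower. Apart from the filters, the cause of these movements was not tested. Without PL replicate 3, an alternative also added after seeing the data and run on deposited values only, 2191 of the mRNAs higher in BP had SM above PL and 183 had PL above SM. The gene lists by symbol were not run under any alternative.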
